A study of Mus musculus with 2 samples.

Results

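Genes of cell-surface and matrix proteoglycans, hyaluronan, tenascins and heparan sulfate enzymes were described in lower molar mesenchyme of mouse embryos with and without a working copy of Osr2. The members are a list of 43 genes chosen by gene family, and all 43 were found among the 22054 gene symbols used here. The Osr2-/- mutant library (n = 1) and the Osr2+/- control library (n = 1) both came from embryonic day 14.5 on a mixed background, so the control also carried a mutant allele. For both genotypes the molar mesenchyme was collected by laser capture microdissection of frozen head sections, and according to the series design 3 mutant and control pairs were pooled for RNA extraction. Osr2 codes for a zinc-finger transcriptional regulator, and mice that lack it develop additional teeth lingual to their molars. The deleted part of the allele, the number of embryos behind each sample and their sex are not given in the sources used here.

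With 1 library per genotype there is no replicate check and no test between genotypes, and every difference below describes these 2 libraries. RPKM counts reads per transcript length and per total of mapped reads, which puts genes and libraries on a common scale. That scale is not wholly equal between the libraries, as RPKM over all rows summed to 107972 in the mutant and 118957 in the control. The mutant library was 6.38 times as deep as the control library, with about 34.3 M mapped reads in the mutant and 5.38 M in the control, as estimated from coverage. The read totals rest on a weakly backed estimate of the bases per read, given with the processing, and the ratio of 6.38 does not. Each library had a lane of its own, per the names of the deposited files, and a lane effect cannot be told apart from genotype. Intervals are 95% counting intervals from these approximate reads. Osr2 itself was at 9.16 RPKM in the mutant library and 38.7 RPKM in the control library, 4.23-fold lower in the mutant (3.69 to 4.84), which goes the way the labels say. All 12 genes listed as dental mesenchyme markers were above 1 RPKM in both libraries, among them the transcription factor genes Msx1 (36.8 RPKM in the mutant, 40.0 RPKM in the control) and Prrx1 (122 RPKM in the mutant, 151 RPKM in the control).

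Heparan sulfate is a sulfated sugar chain that cells attach to core proteins: syndecans and glypicans at the cell surface, and perlecan and agrin in basement membranes. The chains bind growth factors such as FGFs, Wnts, BMPs and Hedgehog proteins, and the pattern of sulfate groups along the chain affects which ones they bind. Hyaluronan is a sugar chain without a core protein that is spun out at the cell membrane and organised by versican and link proteins in loose embryonic matrix. Syndecan-1 and tenascin-C are classical markers of the condensing dental mesenchyme around the early tooth germ.

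Most of these genes were at similar levels in the 2 libraries, with the testicans higher in the mutant and a major glypican, versican and the main hyaluronan synthase lower. Of the 43 members, 29 reached 1 RPKM in at least 1 library, and these are the members counted below. On the log2(RPKM + 1) scale, 25 of the 29 lay within 1.5-fold. Spock1 and Spock2 were higher in the mutant library by at least 1.5-fold, and Gpc6 and Has2as at least 1.5-fold lower. Among all 9779 genes that passed the same filter, 2.55% were higher in the mutant by at least 1.5-fold and 3.57% lower by that much, against 6.9% of the members in each direction. The median log2 ratio was 0.05 for the members and -0.05 for all genes.

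The counting interval of the ratio lay above 1 for 9 members and below 1 for 9 others, and it held 1 for the remaining 11. The interval lay above 1 for 7.84% of all genes tested and below 1 for 15.9%. Such an interval compares the reads of these 2 libraries and not the genotypes. With reads counted at 2 times the bases each, the intervals of Sdc1, Sdc2, Hspg2, Cd44 and Ext1 held 1, which left 5 members above 1 and 8 below. With ratios centred on genes at 5 RPKM or more, the interval of Ext1 also held 1 and that of Tnc lay above 1. The members were more deeply covered than most genes, with a median of 172 approximate reads in the control library against 57.0 for all genes tested. Among genes at 5 RPKM or more in both libraries, 7 of 20 members had an interval above 1 and 6 below 1, against 9.22% and 18.2% of 3288 genes.

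**Figure D1:**
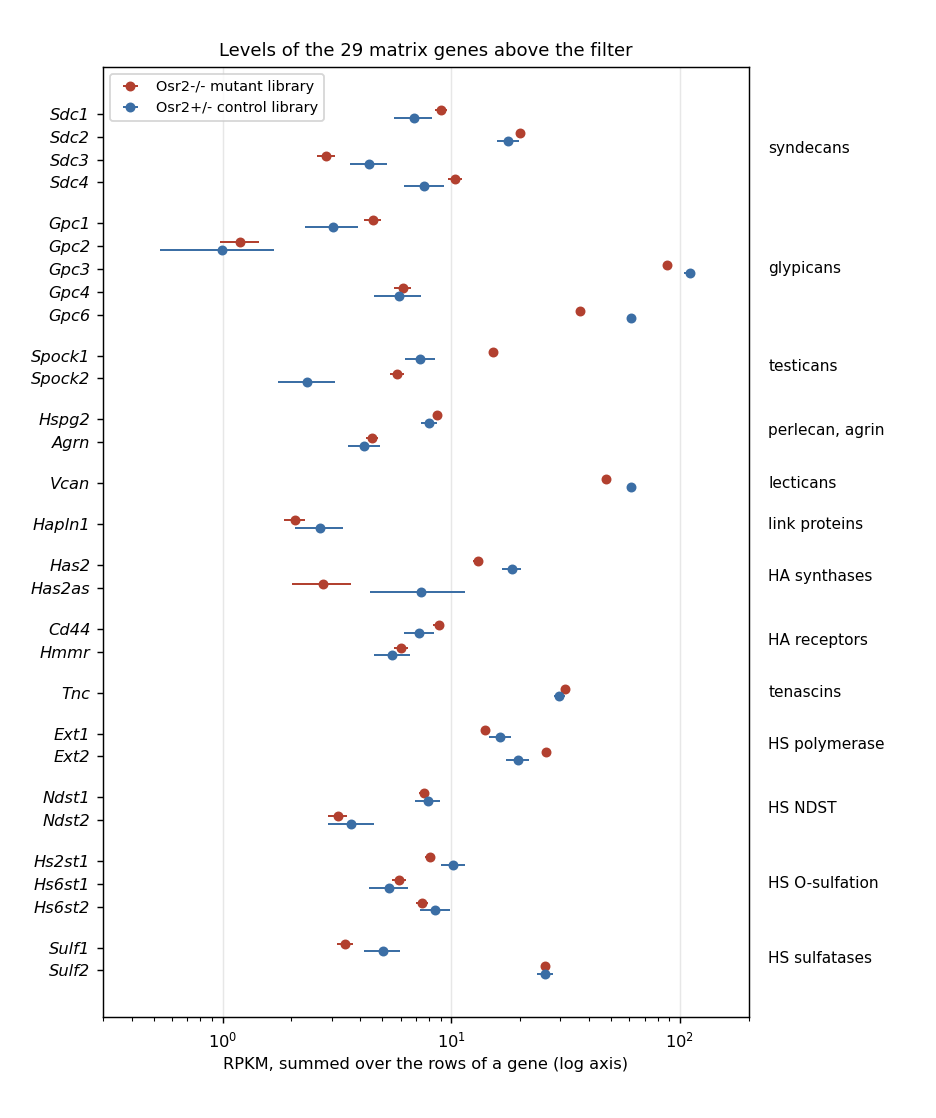
Level in RPKM (log axis) of the 29 genes that passed the filter, grouped by role, in the Osr2-/- mutant library (red, upper point) and the Osr2+/- control library (blue, lower point); bars are 95% counting intervals. Gpc3 is the most abundant in both libraries, at 87.7 RPKM in the mutant and 110 RPKM in the control, and the control intervals are wider because that library is shallower.

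Among the syndecans, the transmembrane heparan sulfate proteoglycans, 3 were somewhat higher in the mutant library and Sdc3 was lower. Sdc4, which encodes a syndecan of focal adhesions, was at 10.4 RPKM in the mutant (9.72 to 11.1) and 7.63 RPKM in the control (6.21 to 9.27), a ratio of 1.36 (1.11 to 1.69). Sdc1 was at 9.02 RPKM in the mutant (8.46 to 9.62) and 6.84 RPKM in the control (5.64 to 8.23), a ratio of 1.32 (1.08 to 1.62). Both were higher in the mutant, with counting intervals of the levels that do not overlap. Sdc2, the most abundant syndecan in both libraries, was at 19.98 RPKM in the mutant and 17.7 RPKM in the control, and its ratio of 1.13 had an interval that only just lay above 1 (1.004 to 1.27). Sdc3 was at 2.83 RPKM in the mutant (2.58 to 3.09) and 4.36 RPKM in the control (3.60 to 5.23), 1.54-fold lower in the mutant (1.25 to 1.89). Sdc3 thus stood opposite to the other syndecans, while its log2 ratio of -0.49 on the RPKM + 1 scale stayed inside 1.5-fold. Summed over the 4 genes, syndecan RNA was at 42.2 RPKM in the mutant and 36.5 RPKM in the control, a ratio of 1.16 (1.06 to 1.26). Sdc3 made up 6.69% of that sum in the mutant and 11.9% in the control.

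Syndecan-1 is also a protein of epithelia, and epithelial RNA differed between the libraries. Of 21 dental epithelium markers in the files, 14 passed the filter; 13 of those had a log2 ratio above 0 and 8 an interval above 1, and 3 (Krt18, Cdh1 and Grhl2) passed through the mutant library alone. The summed level of the 21 markers was 70.5 RPKM in the mutant and 50.7 RPKM in the control, 1.39-fold higher in the mutant (1.27 to 1.52). The keratin gene Krt17 was at 4.63 RPKM in the mutant and 1.48 RPKM in the control. Fgf4, an enamel knot gene, was listed at 0 in both libraries. Shh, Cldn3 and Cldn7 had 0.0493 to 0.392 RPKM in the mutant, with 0 listed in the control. The lower bounds of their ratios were 0.0339 to 0.674, so equal levels in the shallower control were not excluded. The part of epithelial RNA in the values of Sdc1 and Sdc4 was not tested. In pooled tissue, a different number of cells of a type and a different amount of RNA per cell cannot be told apart. Sdc2 lies 2.26 Mb from Osr2 on chromosome 15, where mutant embryos can share sequence linked to the Osr2 allele, and the part of this linkage in its value was not tested.

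Glypicans, which are tied to the membrane by a lipid anchor, held the largest levels, and their abundant members were lower in the mutant library. Gpc6 (chromosome 14, 117324537 to 118378751 in mm9) was measured at 36.5 RPKM in the mutant (35.7 to 37.2) and 61.3 RPKM in the control (58.8 to 63.9). It was 1.68-fold lower in the mutant (1.604 to 1.76), with a log2 ratio of -0.73. Gpc3, whose human counterpart is mutated in an overgrowth syndrome, was at 87.7 RPKM in the mutant (85.6 to 89.8) and 110 RPKM in the control (104 to 116), 1.26-fold lower (1.19 to 1.33). Both rest on at least 1346 approximate reads in each library, and their intervals are narrow. In the other direction, Gpc1 was at 4.54 RPKM in the mutant (4.17 to 4.94) and 3.03 RPKM in the control (2.30 to 3.92), a ratio of 1.5 (1.14 to 2.003) on 58 control reads.

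The other glypicans gave no difference beyond counting error or were hardly seen. Gpc4 was at 6.13 RPKM in the mutant and 5.88 RPKM in the control, a ratio of 1.04 (0.81 to 1.35). Gpc2 was at 1.20 RPKM in the mutant and 0.99 RPKM in the control (ratio 1.21, 0.68 to 2.32) and passed the filter through the mutant library alone. Gpc5, the neighbour of Gpc6 on chromosome 14 at a distance of 400 kb, was listed at 0 in both libraries. Summed, the 6 glypicans were at 136 RPKM in the mutant and 182 RPKM in the control, 1.33-fold lower (1.28 to 1.39), and Gpc3 with Gpc6 supplied most of it.

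Gpc3, Gpc4 and the sulfotransferase gene Hs6st2 lie in the same region of chromosome X, with 108 kb between Gpc4 and Gpc3 and 371 kb between Hs6st2 and Gpc4. The pools differed in sex-linked RNA: Xist was at 30.0 RPKM in the mutant and 5.21 RPKM in the control, and the Y-linked gene Ddx3y was listed at 0 in the mutant and at 3.28 RPKM in the control. The 368 genes of chromosome X that were tested had a median log2 ratio of -0.10, against -0.33 for Gpc3, 0.05 for Gpc4 and -0.17 for Hs6st2. Of Gpc3, Gpc4 and Hs6st2, with rows summed per gene, Gpc3 was the one with an interval that excluded 1. The part of sex-linked differences in these values was not tested.

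The testicans had the largest ratios above 1 of the members tested. Testicans are secreted proteoglycans with a calcium-binding domain related to that of SPARC, best known from the nervous system. Spock1 (chromosome 13, 57522556 to 58009693) was measured at 15.2 RPKM in the mutant (14.6 to 15.8) and 7.32 RPKM in the control (6.29 to 8.46), a ratio of 2.08 (1.798 to 2.44) and a log2 ratio of 0.96. Spock2 (chromosome 10, 59569005 to 59596661) was measured at 5.79 RPKM in the mutant (5.39 to 6.21) and 2.35 RPKM in the control (1.74 to 3.10), a log2 ratio of 1.02. Their levels in the mutant library lay well outside the control intervals. By level, Spock1 ranked 8 of the 43 members in the mutant and 16 in the control. Spock3 stayed below the filter at 0.341 RPKM in the mutant and 0.552 RPKM in the control. Together the testicans reached 21.3 RPKM in the mutant and 10.2 RPKM in the control, a ratio of 2.09 (1.83 to 2.38).

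The summed markers of bone, cartilage and nerve were higher in the mutant library, as were those of dental epithelium given with the syndecans. The 10 osteoblast markers summed to 137 RPKM in the mutant and 102 RPKM in the control, 1.35-fold higher (1.29 to 1.41). Of these 10, 7 passed the filter and 5 of those were at least 1.5-fold higher, but Ibsp, Sp7 and Ifitm5 passed through the mutant library alone, which favours them to be higher. Of the 5, the bone sialoprotein gene Ibsp was at 13.0 RPKM in the mutant and 0.459 RPKM in the control, and Sp7, a transcription factor gene of osteoblasts, at 3.84 RPKM in the mutant and 0.607 RPKM in the control. Of the 7 that passed, Phex went the other way, at 1.05 RPKM in the mutant and 1.78 RPKM in the control. Col1a1, the largest part of the sum, was nearly equal (86.7 RPKM in the mutant, 83.2 RPKM in the control). The 14 chondrocyte markers summed to 29.002 RPKM in the mutant and 21.7 RPKM in the control, 1.33-fold higher (1.23 to 1.45). Of them 5 passed, and 4 of those had an interval above 1, led by Col2a1 at 7.90 RPKM in the mutant and 4.05 RPKM in the control. The other gene that passed, Hapln1, was lower in the mutant, with a log2 ratio of -0.26 and an interval that held 1. Of the cartilage matrix genes that did not pass, Matn1 was listed at 0 in both libraries. Col9a1 (0.163 RPKM in the mutant, 0.328 RPKM in the control) and Col9a3 (0.140 and 0.287 RPKM) were lower in the mutant, with intervals that held 1. Col9a2, Col11a2, Matn3 and Comp were higher there, at no more than 0.372 RPKM. Acan was at 0.00956 RPKM in the mutant and listed at 0 in the control. The 10 neuron and glia markers summed to 7.62 RPKM in the mutant and 5.09 RPKM in the control, 1.49-fold higher (1.15 to 1.94). Of them 3 passed, in both directions: the neurofilament gene Nefl was at 4.43 RPKM in the mutant and 2.03 RPKM in the control, and Gfra3, a receptor gene, was at 0.253 RPKM in the mutant and 1.397 RPKM in the control, 5.52-fold lower (2.57 to 11.7) and passing through the control alone. The part of these cell types in the testican values was not tested.

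Perlecan and agrin, the heparan sulfate proteoglycans of basement membranes, differed little. Hspg2, the perlecan gene, was at 8.71 RPKM in the mutant and 7.97 RPKM in the control, a ratio of 1.09 whose interval only just lay above 1 (1.004 to 1.19). Agrn was at 4.5 RPKM in the mutant and 4.18 RPKM in the control, a ratio of 1.08 (0.91 to 1.29). Summed over all 15 core proteins (syndecans, glypicans, testicans, Hspg2 and Agrn), the level was 213 RPKM in the mutant and 240 RPKM in the control, a ratio of 0.885 (0.856 to 0.915). Within that sum Gpc6 made up 17.1% in the mutant and 25.5% in the control, while Spock1 made up 7.14% in the mutant and 3.04% in the control.

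**Figure D2:**
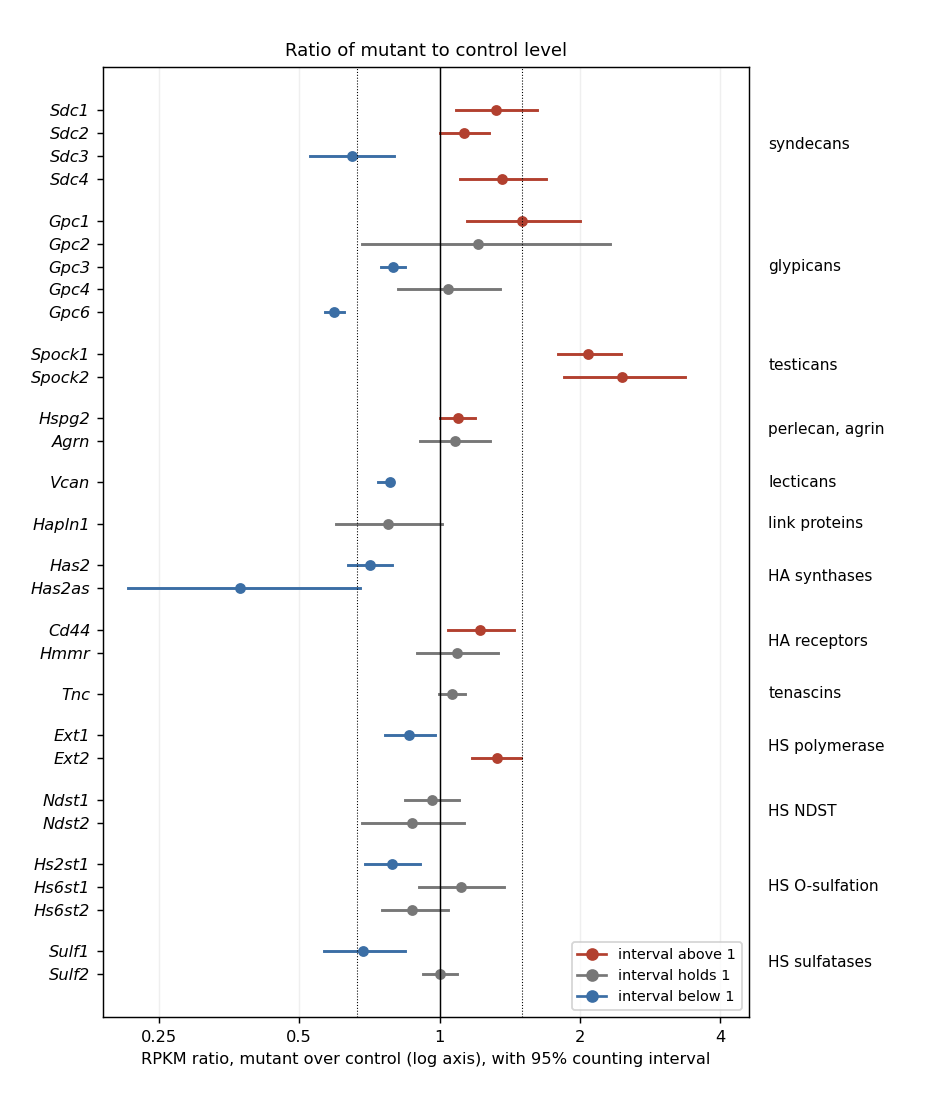
Ratio of mutant to control RPKM (log axis) for the 29 genes that passed the filter, with 95% counting intervals; dotted lines mark 1.5-fold in each direction, and colour shows whether the interval lies above 1 (red), below 1 (blue) or holds 1 (grey). Spock1 and Spock2 lie farthest to the right, and Has2as and Gpc6 farthest to the left. For genes with several transcript rows the interval is that of the ratio of reads, which for Vcan is 0.766 beside an RPKM ratio of 0.781.

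The enzymes that build and edit heparan sulfate were nearly balanced between the libraries. Of 12 members, 9 passed the filter. None of these was 1.5-fold apart, 1 had an interval above 1 and 3 below 1. Their summed level was 102 RPKM in each library, a ratio of 0.993 (0.949 to 1.04).

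Ext1 and Ext2 encode the partners of the polymerase that extends the chain, and they differed in opposite directions. Ext2 was at 25.9 RPKM in the mutant (24.9 to 26.9) and 19.5 RPKM in the control (17.4 to 21.8), a ratio of 1.33 (1.18 to 1.498). Ext1 was at 14.1 RPKM in the mutant (13.4 to 14.8) and 16.4 RPKM in the control (14.6 to 18.3), 1.16-fold lower (1.02 to 1.31), with level intervals that overlap slightly. Ext1 accounted for 35.3% of the summed polymerase RNA in the mutant and 45.6% in the control. Like Sdc2 and Has2, Ext1 lies on chromosome 15 with Osr2, at a distance of 17.7 Mb.

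Sulfation enzymes showed few differences beyond counting error. Ndst1, whose product removes acetyl groups and adds sulfate to nitrogen at the start of chain modification, was at 7.59 RPKM in the mutant and 7.87 RPKM in the control (ratio 0.96, 0.84 to 1.104). Ndst2, which encodes a related enzyme, was at 3.19 RPKM in the mutant and 3.66 RPKM in the control (0.87, 0.68 to 1.13). Hs2st1, the uronic acid 2-O-sulfotransferase gene, was at 8.07 RPKM in the mutant (7.64 to 8.51) and 10.2 RPKM in the control (8.996 to 11.5), 1.26-fold lower (1.102 to 1.44). The 6-O-sulfotransferase genes Hs6st1 and Hs6st2 had ratios of 1.11 (0.91 to 1.37) and 0.87 (0.75 to 1.04), and the interval of Hs6st2 lay below 1 when only its highest transcript row was used.

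The extracellular sulfatases, which remove 6-O-sulfate from finished chains, were unlike each other. Sulf2 was at 25.8 RPKM in the mutant (25.0 to 26.6) and 25.8 RPKM in the control (23.8 to 27.8), a ratio of 1.0 (0.92 to 1.09). Sulf1 was at 3.43 RPKM in the mutant (3.15 to 3.73) and 5.01 RPKM in the control (4.17 to 5.97), 1.46-fold lower (1.19 to 1.77). Because Sulf2 supplied 88.2% of the sulfatase RNA in the mutant and 83.7% in the control, the sum of both genes had a ratio of 0.949 (0.879 to 1.02). The annotated span of Sulf2 overlaps that of Ncoa3 by 154 bases, and Ncoa3 was at 2.07 RPKM in the mutant and 1.53 RPKM in the control.

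On the hyaluronan side, the synthase and versican were lower in the mutant library and the receptors were not. Has2, the main hyaluronan synthase gene of embryonic mesenchyme, spanning 56497182 to 56526101 of chromosome 15, was measured at 13.1 RPKM in the mutant (12.5 to 13.7) and 18.4 RPKM in the control (16.7 to 20.3). It was 1.41-fold lower in the mutant (1.27 to 1.57), with a log2 ratio of -0.46. Has2 supplied 94.8% of the RNA of the 3 synthase genes in each library. Has1 and Has3 stayed below the filter, at 0.412 and 0.3004 RPKM in the mutant and 0.561 and 0.446 RPKM in the control.

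Has2as, the RNA annotated antisense to Has2, was at 2.74 RPKM in the mutant (2.004 to 3.66) and 7.34 RPKM in the control (4.43 to 11.4), with a log2 ratio of -1.16. Its ratio was the lowest of the members tested, but it rests on about 46 reads in the mutant and 19 in the control over a transcript of 485 bases. Its whole span of 4517 bases lies inside that of Has2, and the sources used here do not say that strand was kept. Reads of the 2 genes therefore cannot be told apart where they overlap, and a lower Has2as is uncertain as a result of its own.

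Versican, the large chondroitin sulfate proteoglycan that binds hyaluronan, was the abundant lectican. Vcan (chromosome 13, 89794915 to 89882117) was measured at 47.7 RPKM in the mutant (47.0 to 48.4) and 61.1 RPKM in the control (59.1 to 63.1), 1.28-fold lower (1.26 to 1.35). The lecticans of cartilage and brain were nearly absent from the counts: Acan, Ncan and Bcan were at no more than 0.0435 RPKM in the mutant and 0.0626 RPKM in the control. Hapln1, the link protein that ties versican and aggrecan to hyaluronan and lies 43.5 kb from Vcan, was at 2.06 RPKM in the mutant and 2.66 RPKM in the control. Its ratio of 0.78 had an interval that held 1 (0.60 to 1.01). The other link proteins stand beside other lecticans, Hapln3 within 1.93 kb of Acan and Hapln4 within 2.22 kb of Ncan. Both stayed below the filter, Hapln3 at 0.0704 RPKM in the mutant and 0.478 RPKM in the control on 3 and 4 reads.

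The hyaluronan receptors were slightly higher in the mutant library. Cd44 was at 8.82 RPKM in the mutant (8.35 to 9.30) and 7.23 RPKM in the control (6.19 to 8.39), a ratio of 1.22 (1.04 to 1.44). Hmmr, which is also a cell division gene, was at 6.02 RPKM in the mutant and 5.53 RPKM in the control, a ratio of 1.09 (0.90 to 1.33). Summed over synthases other than Has2as, the level was 13.8 RPKM in the mutant and 19.4 RPKM in the control, while both receptors together were at 14.8 RPKM in the mutant and 12.8 RPKM in the control.

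Tenascin-C, an adhesion-modulating protein of condensing mesenchyme, was abundant and nearly equal. Tnc was at 31.6 RPKM in the mutant (30.9 to 32.3) and 29.7 RPKM in the control (28.0 to 31.5), a ratio of 1.06 (0.999 to 1.13). Tnr, a tenascin of the nervous system, was at 0.0214 RPKM in the mutant and listed at 0 in the control, and Tnxb was listed at 0 in both. A related gene outside the members, Tnn, which encodes tenascin-W of bone and tooth-supporting tissue, was at 1.76 RPKM in the mutant and 0.534 RPKM in the control, a ratio of 3.30 (2.02 to 5.77) on about 17 control reads. Tnn passed the filter through the mutant library alone, which favours it to be higher. The osteoblast markers named above were higher in the same library, and their part in this value was not tested.

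**Figure D3:**
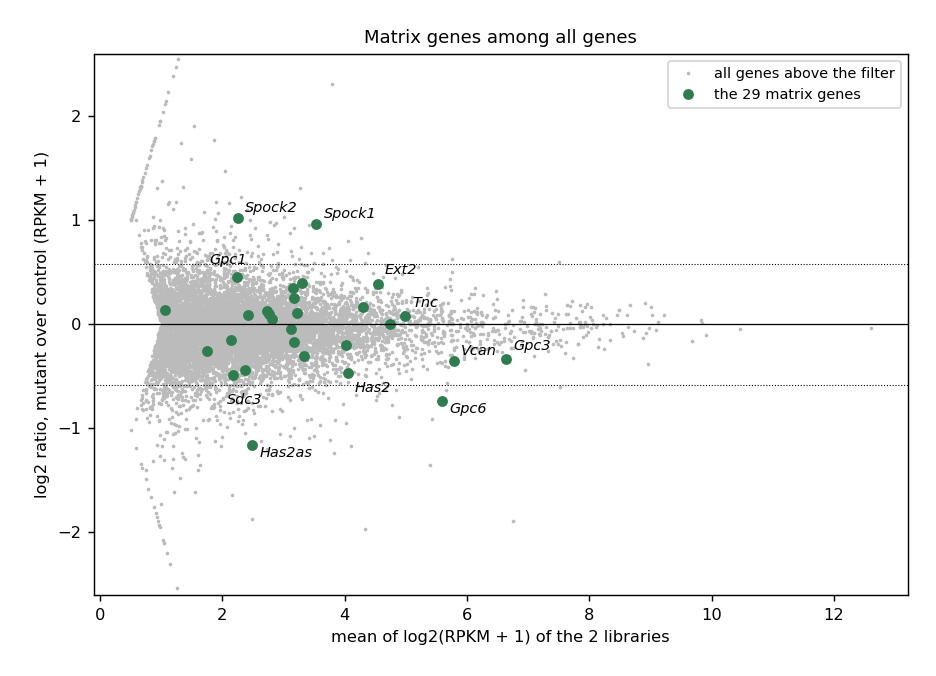
Log2 ratio of mutant over control, on the RPKM + 1 scale, against the mean level of the 2 libraries for all 9779 genes that passed the filter (grey) and the 29 proteoglycan, hyaluronan, tenascin and heparan sulfate genes (green); dotted lines mark 1.5-fold, and 22 genes beyond a log2 ratio of 2.6 lie outside the plot. Gpc6, Vcan and Gpc3 are the abundant members that lie below 0, and Spock1 and Spock2 lie high among the grey points. Other genes lie higher, such as Alpl, near the level of Spock2, at a log2 ratio of 1.22.

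Members below the filter numbered 14, none of them above 0.561 RPKM in either library. Gpc5 and Tnxb were listed at 0 in both libraries. Acan, Bcan, Hapln4, Tnr, Ndst4 and Hs6st3 had between 0.00868 and 0.116 RPKM in the mutant, with 0 listed in the control. A count of 0 in the control allows up to 3 reads, which for these genes is 0.0758 RPKM (Acan) to 0.313 RPKM (Hs6st3), so none of the mutant values lay above what the shallower control could have missed. The remaining ones, Spock3, Ncan, Hapln3, Has1, Has3 and Ndst3, had values above 0 in both libraries. An exact 0 can also be a failed estimate in files of this kind.

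Of the members, 7 are listed with several transcript rows, whose split is an estimate by the authors' software. Versican RNA is spliced into forms that differ in the regions that carry chondroitin sulfate. Its longest row, of 12432 bases, was at 23.7 RPKM in the mutant and 33.6 RPKM in the control, 1.42-fold lower, and the row of 9552 bases was at 21.5 RPKM in the mutant and 24.9 RPKM in the control, 1.16-fold lower. The short row of 3745 bases was at 2.51 RPKM in the mutant and 2.50 RPKM in the control. The longest row thus made up 49.8% of Vcan in the mutant and 55.1% in the control. With the longest row alone, the log2 ratio of Vcan was -0.48, against -0.35 for the sum.

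For the other members with several rows, 1 row carried most of the level. Spock1 had 97.5% of its level in the mutant and 97.0% in the control in the row of 4665 bases, and that row had a ratio of 2.09. Gpc6 was placed almost wholly in the row of 6732 bases, at 36.5 RPKM in the mutant and 60.2 RPKM in the control. Cd44 had 96.0% of its level in the mutant and 96.7% in the control in its shortest row of 4407 bases. Hs6st2 was split between rows of 3738 bases (5.96 RPKM in the mutant, 7.50 RPKM in the control) and 4217 bases (1.49 RPKM in the mutant, 1.02 RPKM in the control). In Sulf1, the row of 4530 bases was at 0.575 RPKM in the control and at about 0 in the mutant, while the main row of 4625 bases was 1.29-fold lower.

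**Figure D4:**
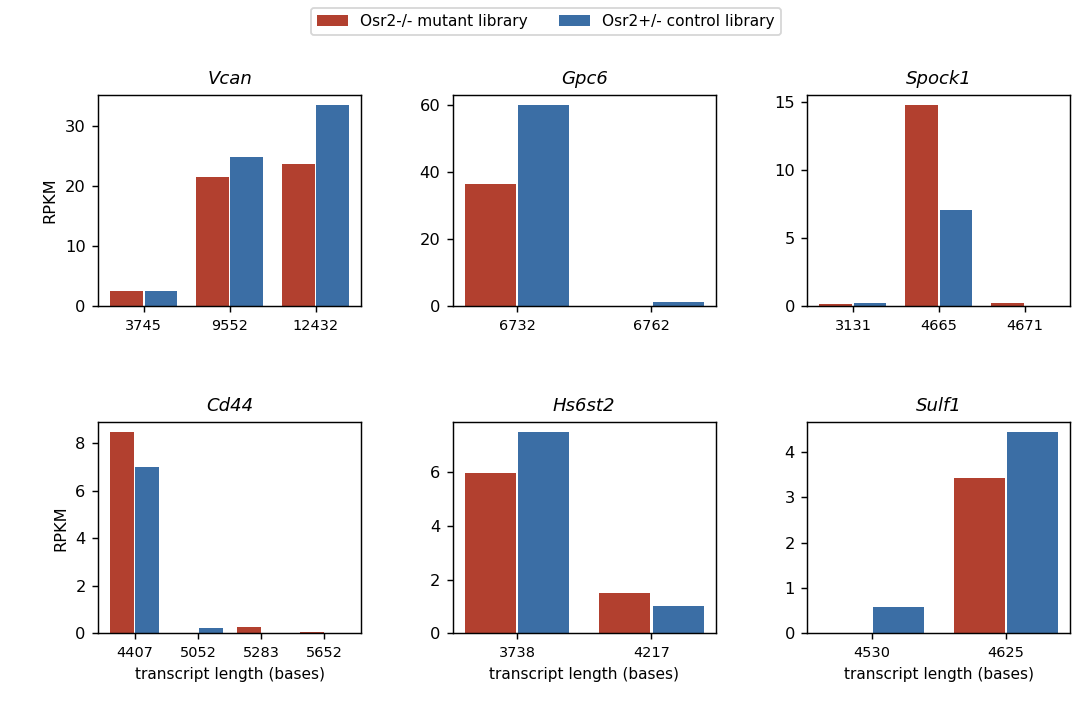
RPKM of each transcript row, named by its length in bases, in the Osr2-/- mutant library (red, left bar) and the Osr2+/- control library (blue, right bar) for 6 genes listed with several rows; rows under 0.01 RPKM in both libraries are not drawn. In Vcan the longest row differs more than the others, and in Gpc6, Spock1 and Cd44 a single row carries nearly all of the level.

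The wider pathway was described with further lists of genes. Enzymes of chondroitin and dermatan sulfate, the chains that versican carries, were mostly lower in the mutant library. Of 17 genes 12 passed the filter, of which 10 had a log2 ratio below 0, 6 an interval below 1 and none an interval above 1. The median log2 ratio was -0.35, against -0.05 for all genes. Of all 9779 genes tested, 5623 had a log2 ratio below 0, and 15.9% had an interval below 1. Within the list, Chsy1 (13.2 RPKM in each library) and Chst14 (6.79 RPKM in the mutant, 6.73 RPKM in the control) were nearly equal. Chst15, a 4-sulfate 6-O-sulfotransferase gene, was at 7.59 RPKM in the mutant and 10.8 RPKM in the control, 1.43-fold lower (1.24 to 1.64). Arsb, a lysosomal sulfatase gene, was at 4.17 RPKM in the mutant and 5.997 RPKM in the control, 1.44-fold lower (1.18 to 1.74). Ust, which encodes the uronyl 2-sulfotransferase, and the chain synthase gene Chsy3 were 2.35-fold (1.56 to 3.46) and 2.09-fold (1.396 to 3.06) lower, each on about 36 or 37 control reads and each passing the filter through the control library alone. The summed level of the list was 48.01 RPKM in the mutant and 57.6 RPKM in the control, 1.20-fold lower (1.12 to 1.28).

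The enzymes that attach the linker sugars and finish the heparan sulfate chain had a median log2 ratio of -0.08. Of 19 genes on that list 12 passed the filter, and 2 were at least 1.5-fold lower on the scale with 1 RPKM added. An interval below 1 was found for 4 of the 12 and an interval above 1 for 1. The linker enzyme genes B3gat3, B3galt6 and B4galt7 were each lower in the mutant library, at 0.737, 0.824 and 0.827 RPKM in the mutant and 1.72, 1.63 and 1.59 RPKM in the control, and the interval of B4galt7 held 1. These 3 genes are low, and they passed the filter through the control library alone, so a filter on low values favours them to be lower. Hs3st6, a 3-O-sulfotransferase gene, was at 0.783 RPKM in the mutant and 1.93 RPKM in the control, which is also a pass through the control alone.

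In the lists of sulfate and sugar supply, hyaluronan turnover and other matrix partners, medians lay between -0.05 and 0.05. In the supply list (14 of 15 passed, median -0.05), none was 1.5-fold apart on the scale with 1 RPKM added. Of the 14, 2 had an interval above 1 and 1 below 1. Slc26a2, the sulfate transporter gene whose human counterpart is mutated in skeletal dysplasias, was at 1.82 RPKM in the mutant and 1.09 RPKM in the control (ratio 1.67, 1.08 to 2.69). Papss1 and Papss2, whose products make the sulfate donor, had ratios of 1.24 (1.01 to 1.53) and 0.67 (0.50 to 0.90). In the hyaluronan turnover list (6 of 17 passed, median 0.02), Stab1, a scavenger receptor gene, was at 1.17 RPKM in the mutant and 1.82 RPKM in the control, and the hyaluronidase gene Hyal2 was at 7.69 RPKM in the mutant and 7.13 RPKM in the control. Among other proteoglycans and partners (11 of 13 passed, median 0.05), fibronectin (Fn1) was at 27.6 RPKM in the mutant and 33.1 RPKM in the control, 1.20-fold lower (1.13 to 1.27), and Smoc2 was 1.52-fold lower (1.21 to 1.89). Tnn, given with the tenascins, was the 1 partner at least 1.5-fold higher on the scale with 1 RPKM added.

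**Figure D5:**
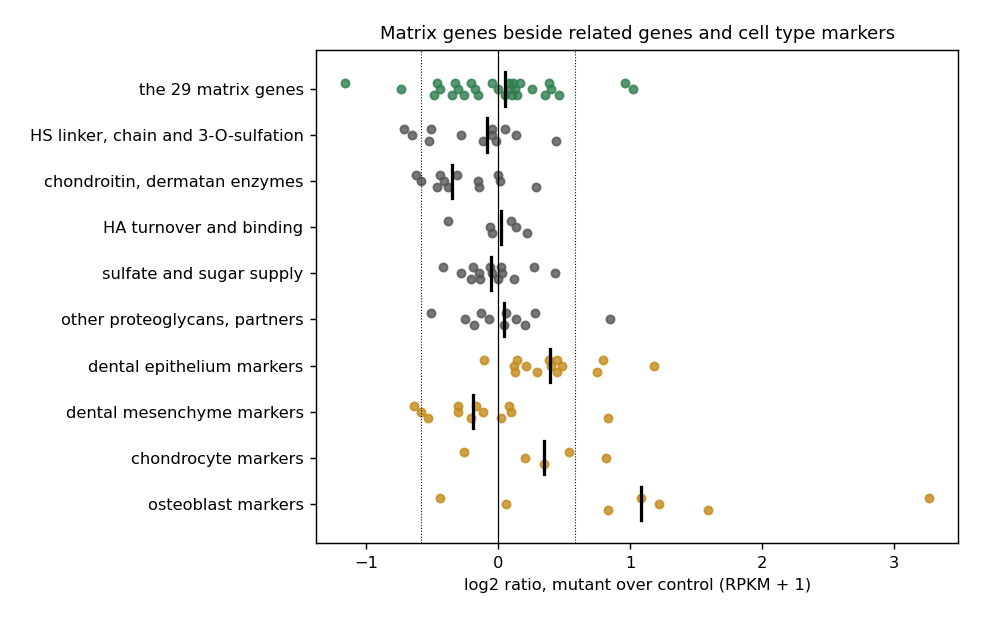
Log2 ratio of mutant over control (RPKM + 1 scale) for each gene above the filter (points) and the median (black bar) of the 29 described genes (green), of related pathway lists (grey) and of cell type markers (orange); dotted lines mark 1.5-fold. The chondroitin and dermatan enzymes have a median of -0.35, the 29 genes 0.05, the dental epithelium markers 0.39 and the osteoblast markers 1.08, where 3 of 7 passed through the mutant library alone. The lists share some genes: Hapln1 is also a chondrocyte marker and Runx2 is both a mesenchyme and an osteoblast marker.

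Markers of the mesenchyme itself are given here beside the lower values of Gpc6, Gpc3, Vcan and Has2. Of the 12 dental mesenchyme markers, 7 had an interval below 1 and 1, Runx2, an interval above 1, with a median log2 ratio of -0.19. The intervals of Msx1, Dlx2, Twist1 and Bmp4 held 1. The summed level of the 12 was 367 RPKM in the mutant and 439 RPKM in the control, 1.20-fold lower (1.17 to 1.23). Prrx1 was the largest part of that sum. The transcription factor genes Pax9 and Lhx8 were 1.56-fold (1.45 to 1.69) and 1.53-fold (1.35 to 1.72) lower. The part of the share of mesenchyme in the 4 values was not tested. The sums of 3 other cell types were also lower in the mutant. Erythroid markers were 1.26-fold lower (877 RPKM in the mutant, 1104 RPKM in the control). Endothelial markers were 1.22-fold lower (26.3 RPKM in the mutant, 32.1 RPKM in the control), and macrophage markers 1.33-fold (17.6 RPKM in the mutant, 23.3 RPKM in the control). Intervals lay below 1 for 5 of 7 erythroid, 2 of 8 endothelial and 2 of 6 macrophage markers that passed the filter. Of the endothelial markers, Emcn differed most, at 2.54 RPKM in the mutant and 5.53 RPKM in the control.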

How the data were processed

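RNA of laser-captured lower molar mesenchyme was sequenced as 1 library of pooled tissue per genotype, after cDNA was made with the NuGEN Ovation RNA-Seq v2 kit, per the labels' protocols. TopHat 1.4.1, Bowtie 0.12.7 and build mm9 are named in the submitters' processing notes. The deposited tables are named for Cufflinks, with no version given in the sources used here. Per the file headers, the authors deposited RPKM and coverage for 28107 RefSeq transcript rows; RPKM was used as given. Coverage, a signal the authors deposited without scaling for library size, divided by RPKM was constant within a library and gave the depth ratio. Coordinates are in mm9, counted from 1.

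Approximate reads were coverage times length divided by 44.3 bases. This read step is the median product of coverage and length between 20 and 66 bases, averaged over both libraries. A median taken inside a window tends towards its middle, so the window partly sets the step. Only 25.4% of low values in the mutant and 27.1% in the control came out within 0.1 of a whole read. That is little more than an even spread of values would give, so the step is weakly backed. Read numbers, mapped read totals and the widths of counting intervals all rest on it. The intervals treat these estimated reads as if they were counts, and no further model of counts was fitted. The tables were expected as FPKM with bounds, and none were given.

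After removal of 54 rows with status FAIL or HIDATA in either library (none of a member), RPKM was summed per symbol. Log2 ratios were taken, mutant over control, after adding 1 RPKM to both levels, so that differences of low genes are understated, for 9779 genes at 1 RPKM or more in at least 1 library. A gene counted as apart at 1.5-fold. Printed folds are plain RPKM ratios. Intervals at 95% are exact Poisson for levels, Clopper-Pearson for ratios and a normal approximation for sums; amplified reads are not independent molecules, so they cover counting error only. The interval step was run on simulated Poisson counts, which cannot test the read step or any added spread of amplified reads. Python 3.11.15, numpy 2.4.6, pandas 2.3.3 and scipy 1.17.1 were used.

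Named genes were all members, Osr2, up to 4 genes of each pathway list and up to 3 of each marker list. Those of the lists had the largest absolute log2 ratio. Msx1, Prrx1, Dlx2, Twist1, Bmp4, Xist, Ddx3y, Ncoa3, Phex, Col1a1, Chsy1, Chst14 and the genes at 0 were named after their values were seen. So were Col9a1, Col9a2, Col9a3, Col11a2, Matn3 and Comp. The members, lists and tests were chosen with earlier results of these data known. Trp63, Hs3st4 and Adgre1 of the lists were not found among the symbols. The alternatives were another pseudocount, filter, scale, call, row choice, read step and depth ratio. Upper molars were not analysed here.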

Additional observations from a re-analysis of the deposited data

How the results depend on the processing

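No paired analysis was possible because each genotype has 1 library, and for the same reason no replicate could be left out. Spock1 and Spock2 were called higher, and Gpc6 and Has2as lower, at 1.5-fold under all 7 alternatives that kept this limit. At 2-fold, 1 member remained higher (Spock2) and 1 lower (Has2as). The number at least 1.5-fold higher was 4 on the TPM scale, which adds Gpc1 and Hs6st3 and tests 35 members, and the number lower was 3, which adds Hapln3. With a pseudocount of 0.1 RPKM Sdc3 joined the lower ones. With a read step 2 times the estimate, 5 members instead of 9 had an interval above 1 (Cd44, Hspg2, Sdc1 and Sdc2 no longer did), and intervals of all genes above and below 1 numbered 287 and 729, against 767 and 1550. Taking 1 row a gene, the highest, placed the interval of Hs6st2 below 1 too, for 10 in all. Tnc had an interval above 1 and Ext1 one that held 1 once ratios were centred on genes at 5 RPKM or more. The member median ranged from -0.01 (TPM scale) to 0.09 (centred). No log2 ratio of the 29 members changed sign under another pseudocount, row choice or scale. Over all genes, 249 were at least 1.5-fold higher and 349 lower, against 556 and 832 with the pseudocount of 0.1, 1705 and 1626 on the TPM scale and 87 and 78 at 2-fold. The depth of the control limits Has2as, Gpc2 and all members below the filter.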
